A study of Mus musculus with 11 samples.

Results

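Open chromatin was examined at 36 genes of glucose uptake, glycolysis, lactate handling, oxygen sensing, Myc and mTOR growth control in naive CD4 T cells. Every peak of the deposited ATAC-seq table whose assigned gene is one of these 36 was taken, which gave 154 of the 45508 peaks. All 36 genes have a peak, 6 of them only 1, and Ddit4 has the most with 13, followed by Slc16a1 with 10 and Pfkfb3 with 9. ATAC-seq uses the transposase Tn5 to cut and tag DNA that is not covered by nucleosomes, so a higher value at a peak means that more tagged fragments came from that stretch.

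The cells came from spleen and lymph nodes of 3 untreated mice on a C57/BL6 background. All mice carried the transgene Tg(Nr4a1-EGFP)GY139Gsat, in which regulatory sequence of Nr4a1 (Nur77) drives green fluorescent protein, and the Foxp3tm1Flv allele, which marks Foxp3-expressing regulatory T cells red. All 4 populations were CD4+, negative for the red Foxp3 reporter and low for CD44. Population A was Nur77-GFP low and Ly6C+ (2 libraries, from mice 1 and 3), population B Nur77-GFP intermediate and Ly6C+ (3 libraries), population C Nur77-GFP intermediate and Ly6C- (3 libraries) and population D Nur77-GFP high and Ly6C- (3 libraries). Each library was made from 10000 cells, no receptor stimulus was given, and the age and sex of the mice are not given in the sources used here. Nr4a1 responds to the T cell receptor, the reporter is a transgene that stands in for that signal, and between A and D the reporter and Ly6C change together, so the 2 cannot be told apart in that comparison.

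Glycolysis breaks glucose down to pyruvate, which is either oxidised in mitochondria or turned into lactate and exported. A resting naive T cell uses little glucose, and on activation mTOR and Myc raise glucose and amino acid transporters and glycolytic enzymes so that the cell can grow. Hif1a is the oxygen-regulated subunit of a transcription factor that drives many of the same enzymes, and it binds DNA at a short core that is called the hypoxia response element.

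The promoters of these genes were described by motif and base composition. The genes were chosen by pathway, with hypoxia and Myc among them, so the shares of hypoxia cores and E-boxes are not independent of that choice. Windows of 1 gene can overlap, as at Eno1 and Aldoa, so the windows are not independent either. RefSeq promoter windows on GRCm38.p6 (250 bases before to 50 bases after a start site, 300 in all) were found for 32 of the 36 genes, in 44 windows, and for 32851 start sites of all genes. No window was given for Myc, Slc7a5, Slc1a5 and Slc2a3. The hypoxia core ACGTG, searched on both strands, lies in 52.3% of the member windows (20 genes), against 19.6% of all windows and 26.8% of the 12941 windows that overlap a listed peak. The E-box CACGTG of Myc and Max, which contains ACGTG, lies in 13.6% of the member windows (Hif1a, Ldha, Pfkfb3, Pfkm, Rheb and Slc16a1), against 7.15% of all and 10.6% of those under a peak. The other hypoxia core, GCGTG, lies in 52.3% of member windows, 32.4% of all windows and 53.0% of windows under a peak, so the last comparison leaves no excess. Member windows are rich in G and C (median 64% against 52.7% in all windows and 61.7% in those under a peak) and in CpG pairs (median 22 against 7 and 21), and the part of this base composition in the motif shares was not tested.

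Motifs of factors downstream of the T cell receptor were counted in the same way. The AP-1 site TGANTCA was in 2.27% of member windows (Aldoa alone) against 7.81% of all and 4.54% under a peak, and the Egr site GCGTGGGCG, which contains GCGTG, in 2.27% (Pfkp alone) against 0.612% and 1.25%. The Nr4a site AAAGGTCA was in 2.27% (Eno1 alone) against 1.51% and 0.865%, the Runx site TGTGGTTT in none against 1.78% and 1.29%, and the NFAT core GGAAA in 54.5% against 61.3% and 58.2%. With 44 windows a share of 2.27% is a single window. A match is a run of letters and not evidence of binding.

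The upstream 250 bases of 6 of these promoters are shown because they carry the motifs named above and because their values are set beside those of the distal peaks of the same genes. Capitals mark every match, on either strand, to the E-box, the 2 hypoxia cores and the AP-1 and Egr sites spelled out above. Aldoa, Pfkm and Tsc1 have the member promoter peaks with the smallest distance to a start site, among those with a window, and Hif1a, Slc16a3 and Pfkp were added after their values were seen. Sequences are from RefSeq, GRCm38.p6, 5′ to 3′ on the strand of the gene, ending 1 base before the start site.
Hif1a (chr12:73907617-73907866, plus strand): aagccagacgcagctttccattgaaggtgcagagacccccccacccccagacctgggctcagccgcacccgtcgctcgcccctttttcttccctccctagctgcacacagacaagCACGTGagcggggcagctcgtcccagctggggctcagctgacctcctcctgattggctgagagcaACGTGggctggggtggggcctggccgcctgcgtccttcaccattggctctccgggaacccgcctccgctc
Slc16a3 (chr11:120948817-120949066, plus strand): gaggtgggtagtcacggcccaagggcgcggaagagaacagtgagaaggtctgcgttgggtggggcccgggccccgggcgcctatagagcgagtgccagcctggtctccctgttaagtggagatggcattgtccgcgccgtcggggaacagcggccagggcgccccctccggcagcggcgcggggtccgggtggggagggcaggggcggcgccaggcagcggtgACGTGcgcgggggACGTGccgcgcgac
Aldoa (chr7:126799255-126799504, minus strand): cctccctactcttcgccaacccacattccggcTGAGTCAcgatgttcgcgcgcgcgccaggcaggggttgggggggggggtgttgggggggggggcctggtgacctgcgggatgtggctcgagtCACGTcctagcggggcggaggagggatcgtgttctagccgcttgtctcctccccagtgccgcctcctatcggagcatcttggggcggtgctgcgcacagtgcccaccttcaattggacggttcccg
Pfkm (chr15:98108221-98108470, plus strand): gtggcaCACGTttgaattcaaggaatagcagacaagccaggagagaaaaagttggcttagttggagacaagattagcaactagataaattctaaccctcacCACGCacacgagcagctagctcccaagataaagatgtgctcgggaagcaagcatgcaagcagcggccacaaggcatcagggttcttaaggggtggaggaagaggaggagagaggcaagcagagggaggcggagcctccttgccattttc
Pfkp (chr13:6648772-6649021, minus strand): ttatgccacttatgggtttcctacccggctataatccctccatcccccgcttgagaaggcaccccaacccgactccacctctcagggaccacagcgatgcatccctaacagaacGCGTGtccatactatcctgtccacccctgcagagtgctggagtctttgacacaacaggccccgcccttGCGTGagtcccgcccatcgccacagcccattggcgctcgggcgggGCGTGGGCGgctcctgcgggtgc
Tsc1 (chr2:28640983-28641232, plus strand): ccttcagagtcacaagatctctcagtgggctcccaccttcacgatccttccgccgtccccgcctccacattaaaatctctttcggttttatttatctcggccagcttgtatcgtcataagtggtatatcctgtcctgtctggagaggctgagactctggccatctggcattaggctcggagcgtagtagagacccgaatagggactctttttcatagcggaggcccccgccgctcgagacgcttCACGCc
Hif1a carries the E-box from base -135 to -130 and a further ACGTG from -70 to -66, counted back from the start site, and Slc16a3 carries ACGTG from -27 to -23 and from -14 to -10. Aldoa has its AP-1 match from -218 to -212 and an ACGTG match from -126 to -122. The Egr match of Pfkp runs from -23 to -15. Of the 44 member start sites 40 lie under a listed peak, with at least 1 in each of the 32 genes.

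Promoters of the whole set were open in every population. Of the 154 peaks 43 (27.9%) lie within 1 kb of the start site of their gene, against 26.8% of all peaks, and 35 of the 36 genes have such a peak. The exception is Tsc2, the GTPase-activating subunit of the tuberous sclerosis complex, whose start site lies under a peak assigned to its neighbour Nthl1 (mean 25.1 rppm in A and 23.5 rppm in D). Values are in rppm, the depth-scaled read number of the deposited table, and the mean over the libraries of the promoter peak nearest the start site ran from 15.4 to 107 rppm over the 35 genes, with a median of 55.3 rppm. Per kilobase of peak, the median level was 36.7 rppm at member promoter peaks and 31.1 rppm at all promoter peaks, and 13.6 rppm at the 111 member peaks farther out against 12.7 rppm at all such peaks.

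Between populations D and A the nearest promoter peaks changed little. Their log2 change (D minus A, on log2 of rppm + 1) ran from -0.54 at Myc to 0.37 at Hk2. The 95% interval of the change lay within 0.5 on either side of 0 for 25 of the 35 genes and within 1 for all 35. Aldoa, which cleaves fructose bisphosphate, had 63.1 ± 0.566 rppm in A (SD, n = 2) and 60.5 ± 3.28 rppm in D (SD, n = 3). Gapdh, a later enzyme of the same pathway, had 55.1 ± 4.86 and 54.0 ± 3.62 rppm, and Mtor, the kinase itself, 76.3 ± 4.02 and 76.0 ± 14.9 rppm. Pgk1, the kinase that makes the first ATP of glycolysis, had the widest interval of the change on the log2 scale, with 38.7 ± 12.9 rppm in A and 35.9 ± 13.4 rppm in D. Its values were 29.6 and 47.8 rppm in A (mice 1 and 3) and 38.9, 21.2 and 47.5 rppm in D (mice 1, 2 and 3). Mouse 3 was highest in every population, and mouse 2, which has no A library, was lowest in B, C and D. The fit has no mouse term, so the SDs and the interval at Pgk1 include this spread between mice.

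**Figure D1:**
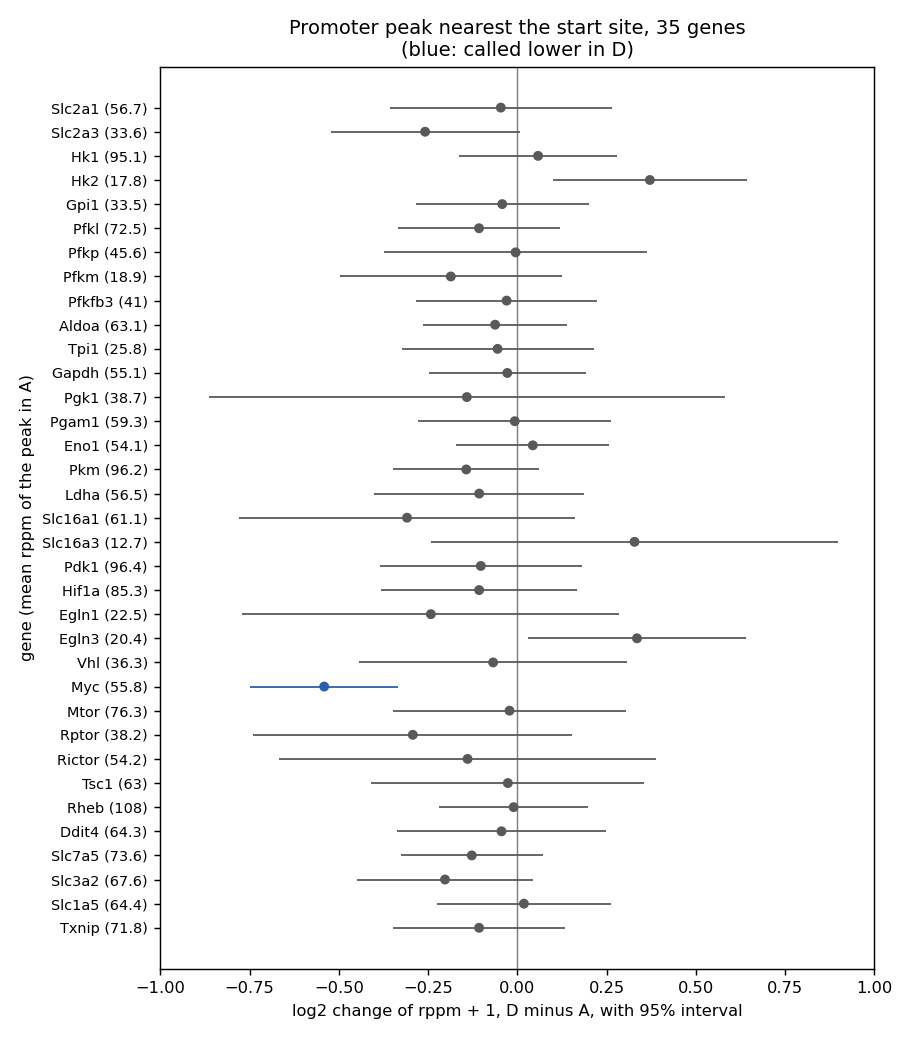
Log2 change of rppm + 1 (D minus A) at the promoter peak nearest the start site of 35 genes, with the 95% interval from limma as a line. The mean level in A is in brackets after each gene. Estimates run from -0.54 at Myc, the only one called (blue), to 0.37 at Hk2.

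In D against A, 16 of the 154 peaks were called higher and 4 lower (limma, Benjamini-Hochberg adjusted p under 0.05 over all 45508 peaks). These are 10.4% and 2.60% of the members. Over all peaks 8.7% were called higher and 3.74% lower, so the shares called among the members were near those of all peaks. With the mouse as a block the counts were 22 higher and 9 lower, beside 12.5% and 8.79% of all peaks, and after quantile normalization 14 and 7, beside 7.75% and 4.94%. The median log2 change was -0.01 over the members and -0.04 over all peaks. At promoters 0 of 43 were called higher and 2 lower, with a background of 2.74% and 0.901%. With the mouse as a block 1 was called higher and 3 lower, with a background of 4.37% and 8.04%; those added are the promoters of Hk2, higher, and of Rptor, lower (block log2 change -0.43, adjusted p = 0.00615; 0.464 without). Away from promoters 16 of 111 (14.4%) were called higher and 2 (1.80%) lower, with a background of 10.9% and 4.78%. In bulk libraries a larger share of cells with a site open and more opening per cell cannot be told apart.

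The 16 higher peaks belong to 9 genes and the 4 lower ones to 4, with Myc and Ddit4 in both groups, and 25 of the 36 genes had no called peak. The higher peaks lay 3.7 to 155.2 kb from the start site of their gene (median 23.45 kb). Of these, 7 were intergenic, 6 in the body of their own gene and 3 in the body of another gene. The fitted change was at least 1 log2 unit at 10 of the 16 and at none of the 4 lower ones. The A and D libraries did not overlap at any of the 20 called peaks, which is a description only, since the calls come from the same libraries. Some peaks without a call did not overlap either, among them the promoter peaks of Hk2 and Pkm. Nearest to the threshold were a Ddit4 peak inside it (adjusted p = 0.0437) and a Rictor peak outside it (adjusted p = 0.056).

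**Figure D2:**
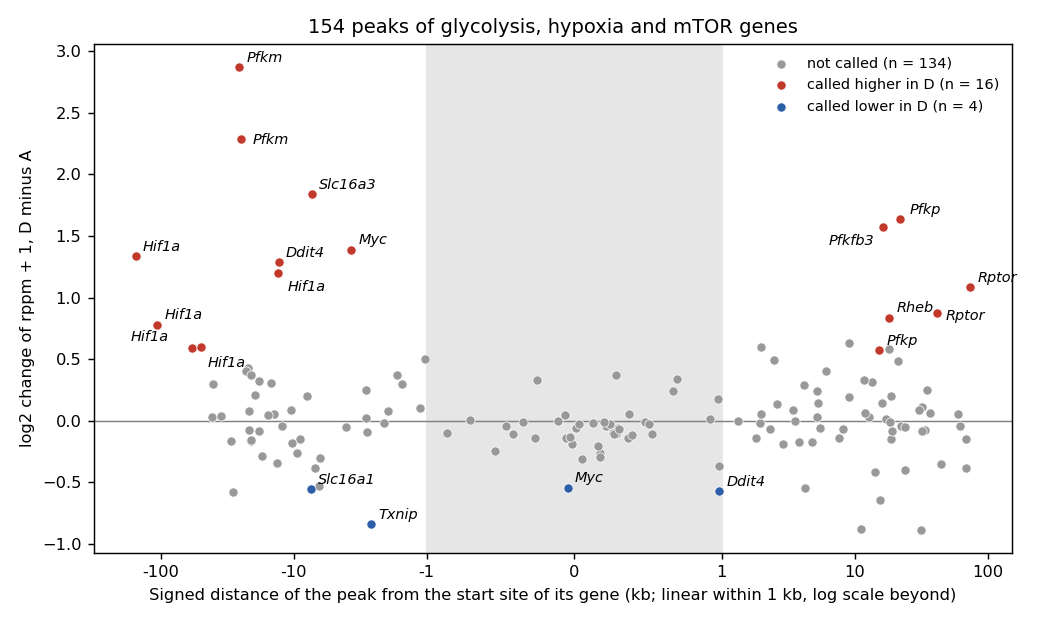
Each point is 1 of the 154 peaks, placed by its signed distance from the start site (kb, linear within the grey band of 1 kb and on a log scale beyond) and by its log2 change of rppm + 1 (D minus A). All 16 peaks called higher (red) lie outside the band, and 2 of the 4 called lower (blue) lie inside it.

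The neighbouring steps split this change. In B against A and in C against B no member peak was called by limma. All peaks gave 0.0% and 0.0022% called in these steps. An unadjusted p under 0.05 was reached by 6 and 7 of the 154 members, and by 1218 and 1820 of all peaks. With edgeR 0 members were called in either step, and with DESeq2 0 in B against A and 1 in C against B. Of all peaks edgeR called 0 in B against A, and 58 higher and 9 lower in C against B. DESeq2 called 8 higher and 0 lower of all peaks in B against A, and 75 and 11 in C against B. In D against C 11 member peaks were called higher and 1 lower, against 4.51% and 1.49% of all peaks, and 16 and 3 with the mouse as a block, against 6.82% and 4.53%. As shares of the 154 members the main counts are 7.14% and 0.649%.

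The 16 peaks called higher in D against A had a median log2 change of 0.13 from A to B, 0.30 from B to C and 0.74 from C to D, given as a description since the calls come from the same libraries. At 12 of the 16 the population means rose at each step from A to D. Whether the last step, from C to D, was larger than the first, from A to B, was tested directly. It was called so at 2 member peaks, 1 near Pfkp and 1 near Pfkm, against 0.631% of all peaks in either direction. The call was lost in 18 of 23 other fits at Pfkp and in 17 of 23 at Pfkm.

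Depth differed widely between libraries. The recovered totals ran from 2597176 reads in D of mouse 1 to 36859229 in D of mouse 3, with the deepest library of each population from mouse 3. Over the members the median number of reads at a peak was 28 in the shallowest and 474 in the deepest library, no value was 0 and the lowest count was 2 reads. Without mouse 3, which leaves 1 library in A, 6 members were called higher and 0 lower in D against A, beside 2.25% of all peaks in either direction, and 3 and 0 in D against C, beside 0.888%. These 6 were called in every fit that tested them: both peaks near Pfkm, the Pfkp peak 22.0 kb into the gene, the Slc16a3 peak, the Hif1a peak 13.1 kb upstream and the Ddit4 peak 13.0 kb upstream. The 3 in D against C were both Pfkm peaks and the same Pfkp peak.

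Glucose uptake genes showed no called peak, beside 8.7% of all peaks called higher and 3.74% lower in D against A. Slc2a1 (Glut1), the main glucose transporter of activated T cells, has 5 peaks and Slc2a3 (Glut3), a high-affinity transporter, has 6. The promoter peak of Slc2a1 had 56.7 ± 8.88 rppm in A (SD, n = 2) and 55.2 ± 9.80 rppm in D (SD, n = 3), and that of Slc2a3 33.6 ± 0.729 and 28.1 ± 3.70 rppm. The lowest estimate was at a Slc2a1 peak 31.6 kb downstream of the start site (log2 change -0.88, adjusted p = 0.0685 by limma), which was called lower in 3 of 23 other fits: with the mouse as a block (log2 change -0.96, adjusted p = 0.00327), after quantile normalization and without the D library of mouse 3.

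Of the 50 peaks of 14 glycolytic enzyme genes 5 were called higher in D against A and 0 lower, beside 8.7% and 3.74% of all peaks. The 5 are assigned to Pfkm, Pfkp and Pfkfb3, and 2 of them are neighbours inside another gene. Pfkm and Pfkp are the muscle and platelet isoforms of phosphofructokinase, and Pfkfb3 makes fructose 2,6-bisphosphate, its strongest activator. The liver isoform gene Pfkl has 2 peaks and neither was called. The other 10 enzyme genes, Hk1, Hk2, Gpi1, Aldoa, Tpi1, Gapdh, Pgk1, Pgam1, Eno1 and Pkm, had no call either.

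The largest change of the whole set was at a peak assigned to Pfkm and placed 25.8 kb upstream of its start site (chr15:98066422-98067193, mm10). The annotation puts it in exon 7 of 18 of Senp1, a SUMO protease gene next to Pfkm, so the assignment to Pfkm rests on distance alone. Its values were 1.20 and 1.01 rppm in A, 1.11, 2.40 and 1.60 rppm in B, 3.92, 3.70 and 3.55 rppm in C, and 13.1, 15.9 and 14.2 rppm in D. Every C library lay above every A and B library, and every D library above every C library. The mean in D was 13.1 times that in A (log2 change 2.87 ± 0.20 SE, adjusted p = 1.22e-06 by limma) and 3.86 times that in C (log2 change 1.70, adjusted p = 6.3e-05).

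A second peak 0.9 kb nearer to Pfkm (chr15:98067437-98067976, intron 6 of 17 of Senp1) followed the same course. It rose from 0.653 and 1.11 rppm in A through 1.45, 1.37 and 1.56 rppm in B and 1.77, 2.67 and 2.69 rppm in C to 8.09, 7.27 and 9.09 rppm in D. All C libraries lay above all B libraries, all B above all A and all D above all C, and the change from A to D was 2.29 ± 0.19 SE on the log2 scale (adjusted p = 3.56e-06 by limma). As neighbours the 2 peaks are not independent. The promoter of Pfkm itself, shown above, had 18.9 ± 0.670 rppm in A (SD, n = 2) and 16.5 ± 1.42 rppm in D (SD, n = 3; adjusted p = 0.51).

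Pfkp rose at 2 peaks in its second intron. At 22.0 kb from the start site (chr13:6626350-6627144) the values were 2.94 and 3.52 rppm in A, 2.90, 3.78 and 3.27 rppm in B, 4.12, 4.94 and 5.28 rppm in C, and 11.2, 13.8 and 11.4 rppm in D. A and B overlapped, C lay just above them and D stood well apart, with a log2 change from A to D of 1.63 ± 0.17 SE (adjusted p = 2.51e-05) and from C to D of 1.19 ± 0.15 SE (adjusted p = 0.00036; 0.0725 with libraries thinned to equal reads, in a range of 2.21e-07 to 0.0725 over all alternatives). At 15.3 kb the same gene changed less, from 19.9 and 17.2 rppm in A, 19.9, 17.4 and 21.1 rppm in B and 20.6, 19.2 and 24.3 rppm in C to 29.6, 25.5 and 29.1 rppm in D. Populations A to C overlapped and D lay above them (log2 change 0.57 ± 0.14 SE, adjusted p = 0.0128). That call was lost without the A library of mouse 3 (adjusted p = 0.169), in a range of 0.000436 to 0.492 over the alternatives. The Pfkp promoter had 45.6 ± 1.83 rppm in A and 46.2 ± 10.7 rppm in D.

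Pfkfb3 rose at 1 of its 9 peaks, in intron 1 at 16.2 kb (chr2:11537526-11537976). It had 0.870 and 1.11 rppm in A, 1.11, 1.15 and 1.56 rppm in B, 1.18, 1.65 and 2.10 rppm in C, and 3.46, 6.69 and 4.99 rppm in D. Both A libraries lay just below the overlapping B and C, and all D libraries lay above them (log2 change from A to D 1.57 ± 0.23 SE, adjusted p = 0.000357; from C to D 1.18 ± 0.21 SE, adjusted p = 0.00314). The peak rests on as few as 6 reads in a library. Its C to D call was lost without mouse 2 (adjusted p = 0.0954) or mouse 3 (log2 change 1.29). Hk2, the inducible hexokinase of activated T cells, reached the threshold with the mouse as a block, at its promoter (block log2 change 0.39, adjusted p = 0.027; 0.0758 without the block) and at a peak 1 kb upstream (block log2 change 0.56, adjusted p = 0.0189; 0.0672 without), the latter in 4 of 24 other fits in all. An Hk1 peak at 11.2 kb was called lower in 3 of 23 other fits, the block among them (block log2 change -0.96, adjusted p = 0.0219; 0.0808 without).

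Of 26 peaks of lactate and pyruvate genes 1 was called higher and 1 lower in D against A, beside 8.7% and 3.74% of all peaks. The calls were at the 2 monocarboxylate transporters. Ldha, which interconverts pyruvate and lactate, and Pdk1, the kinase that holds pyruvate back from mitochondria, had no call in their 5 and 8 peaks. Slc16a3 (Mct4), the exporter of lactate in glycolytic cells, rose 7.3 kb upstream (chr11:120940862-120941431). Its values were 2.28 and 2.42 rppm in A, 4.57, 4.46 and 5.67 rppm in B, 5.69, 7.61 and 8.03 rppm in C, and 13.1, 7.71 and 13.0 rppm in D.

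At this Slc16a3 peak all B libraries were above all A libraries, all C libraries above all B libraries, and only the D library of mouse 2 fell within the range of C. The log2 change from A to D was 1.84 ± 0.22 SE (adjusted p = 7.04e-05), of which 0.81 lay between A and B (adjusted p = 1 by limma), 0.45 between B and C and 0.58 between C and D (adjusted p = 0.124; 0.0397 with the mouse as a block). The promoter of Slc16a3, among the weakest of the set, had 12.7 ± 2.56 rppm in A (SD, n = 2) and 16.9 ± 6.43 rppm in D (SD, n = 3; adjusted p = 0.531).

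Slc16a1 (Mct1), the transporter of the same family that carries lactate and pyruvate in either direction, fell at an intergenic peak 7.5 kb upstream (chr3:104630717-104631633). It had 19.8 and 21.8 rppm in A, 20.7, 16.8 and 19.4 rppm in B, 18.4, 16.04 and 19.1 rppm in C, and 11.9, 15.0 and 14.7 rppm in D. All D libraries lay below all others, among which A overlapped B and B overlapped C (log2 change from A to D -0.56 ± 0.14 SE, adjusted p = 0.0182). Without the A library of mouse 1 or of mouse 3 the call was lost (adjusted p = 0.0725 and 0.183, in a range of 0.00776 to 0.455 over the alternatives). In intron 1 of the same gene, 2.4 kb from the start site, the values were 6.63 and 5.34 rppm in A, 3.56, 5.84 and 5.87 rppm in B, 2.35, 4.11 and 4.54 rppm in C, and 8.86, 9.31 and 8.28 rppm in D. That peak was called in D against C (log2 change 1.10 ± 0.21 SE, adjusted p = 0.00593) and not in D against A (log2 change 0.50, adjusted p = 0.23), with C lowest of the 4 populations. The call was lost without mouse 2 (adjusted p = 0.0927) or mouse 3 (log2 change 1.28).

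Hif1a held most of the calls of the oxygen-sensing group. Of 14 peaks of Hif1a, Egln1, Egln3 and Vhl 5 were called higher and 0 lower in D against A, beside 8.7% and 3.74% of all peaks. All 5 are upstream of 1 gene, Hif1a, which has 7 peaks. Egln1 and Egln3 are the prolyl hydroxylases that mark Hif1a for destruction in oxygen and Vhl is the ligase subunit that recognises the mark, and none of their 7 peaks was called. The Hif1a promoter, which holds the E-box and hypoxia cores shown above, had 85.3 ± 6.21 rppm in A (SD, n = 2) and 79.3 ± 8.31 rppm in D (SD, n = 3; adjusted p = 0.699).

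The Hif1a peak 13.1 kb upstream (chr12:73887838-73888688, intergenic) had 7.50 and 8.56 rppm in A, 6.46, 9.04 and 7.06 rppm in B, 12.2, 12.5 and 10.3 rppm in C, and 21.6, 19.5 and 18.2 rppm in D. A and B overlapped, while C lay above both and D above C. The log2 change was 1.20 ± 0.16 SE from A to D (adjusted p = 0.000173) and 0.71 ± 0.14 SE from C to D (adjusted p = 0.00838). The C to D call was lost after thinning to equal reads (adjusted p = 0.217) and without mouse 2 (0.0626) or mouse 3 (log2 change 0.69).

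The farthest Hif1a peak, 155.2 kb upstream, lies in intron 10 of 13 of Prkch, a protein kinase C gene expressed in T cells, and its link to Hif1a is again by distance (chr12:73745836-73746461). It rose from 0.761 and 1.11 rppm in A and 0.334, 1.37 and 1.16 rppm in B to 1.96, 1.85 and 1.73 rppm in C and 3.85, 3.93 and 3.80 rppm in D. C and D stood apart from each other and from the overlapping A and B (A to D 1.33 ± 0.22 SE on the log2 scale, adjusted p = 0.000979; C to D 0.77 ± 0.20 SE, adjusted p = 0.0343). The C to D call was lost when any C library or the D library of mouse 2 or 3 was left out (adjusted p = 0.0708 to 0.108, in a range of 0.0045 to 0.436 over the alternatives), and the lowest count at this peak was 3 reads.

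A strong Hif1a peak 59.0 kb upstream had 29.5 and 28.5 rppm in A, 30.4, 27.5 and 30.4 rppm in B, 29.8, 26.7 and 31.3 rppm in C, and 52.4, 37.8 and 43.1 rppm in D. All D libraries were above all others (log2 change 0.59 ± 0.13 SE from A, adjusted p = 0.00917; 0.58 ± 0.12 SE from C, adjusted p = 0.0102). A to C shared 1 range, and the test of the C to D step against the A to B step was not passed (adjusted p = 0.3). The call from A was lost without either A library (adjusted p = 0.0649 without mouse 1 and 0.0928 without mouse 3, in a range of 0.00015 to 0.349), and that from C without the C library of mouse 2 (adjusted p = 0.0539, in a range of 0.000309 to 0.237).

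The 2 remaining Hif1a calls were weaker. At 106.9 kb A had 2.28 and 2.62 rppm, B 2.34, 3.09 and 2.51 rppm and C 2.16, 3.60 and 2.78 rppm. D had 4.62, 6.11 and 4.18 rppm there (log2 change from A 0.78 ± 0.20 SE, adjusted p = 0.0207). At 50.2 kb A had 5.11 and 5.24 rppm, B 7.46, 7.10 and 6.18 rppm and C 7.46, 8.12 and 6.58 rppm. D had 9.63, 7.71 and 7.79 rppm and overlapped C (log2 change from A 0.60 ± 0.16 SE, adjusted p = 0.0245). Of the change at 50.2 kb, 0.36 lay between A and B. The first was lost without either A library (adjusted p = 0.172 without mouse 1 and 0.092 without mouse 3) or the D library of mouse 2 (0.0719), in a range of 0.0134 to 0.476. The second was lost without either A library (0.154 and 0.132) or the D library of mouse 1 (0.0554), in a range of 0.0132 to 0.617. The 19.6 kb peak, the seventh of the gene, had 12.2 rppm in A and 14.3 rppm in D and was not called (adjusted p = 0.412).

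**Figure D3:**
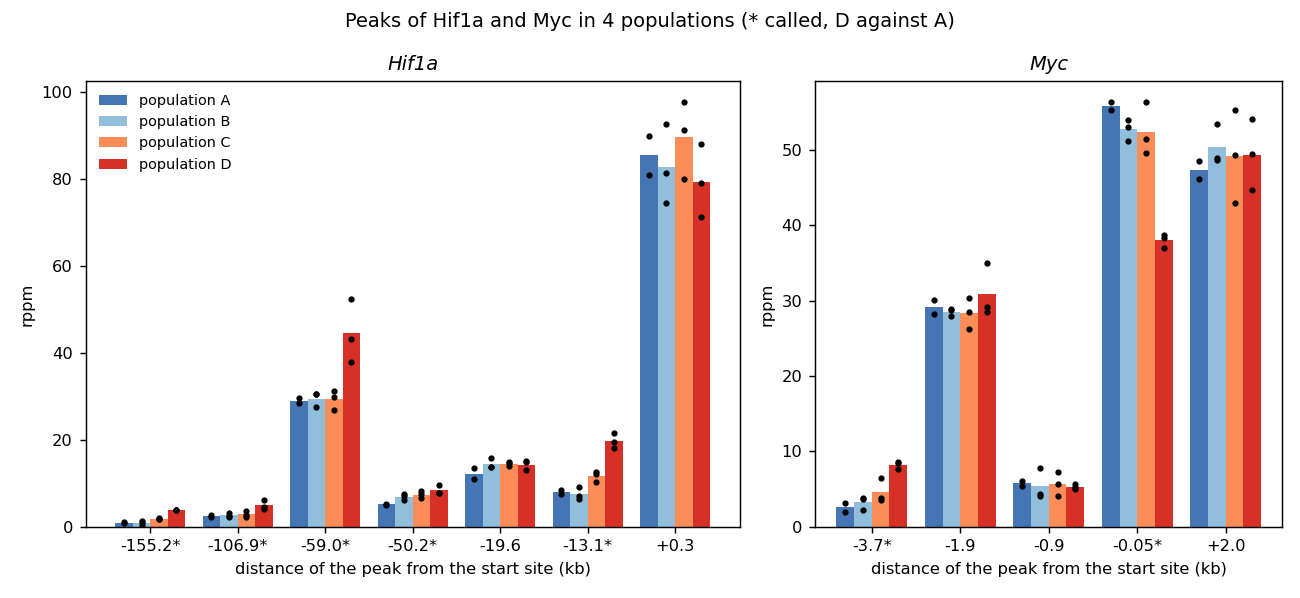
Mean rppm of each population (bars, from 0) and of each library (dots) at the 7 peaks of Hif1a and the 5 peaks of Myc, ordered by distance from the start site in kb. Peaks called in D against A carry a star: 5 upstream of Hif1a, all higher in D, and 2 at Myc, higher at 3.7 kb and lower at the promoter.

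Myc, the growth regulator that is induced within hours of receptor signalling, showed opposite changes at its promoter and upstream. The promoter peak, centred 46 bases before the start site (chr15:61984769-61985822), had 56.3 and 55.3 rppm in A, 53.1, 54.0 and 51.2 rppm in B, 49.6, 56.4 and 51.4 rppm in C, and 37.0, 38.4 and 38.8 rppm in D. C overlapped A and B, both A libraries lay just above B, and all 3 D libraries lay below every other library. The mean in D was 0.682 times that in A (log2 change -0.54 ± 0.10 SE, adjusted p = 0.00169) and 0.725 times that in C (-0.45 ± 0.09 SE, adjusted p = 0.00581). After thinning to equal reads the first call gave an adjusted p of 0.052 and the second 0.386, with ranges of 0.000123 to 0.196 and 0.000553 to 0.386 over the alternatives. The second was also lost with only C and D in the fit (0.0638) and without mouse 2 (0.127) or mouse 3 (0.259), and the first without mouse 3.

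The peak 3.7 kb upstream of Myc (chr15:61981469-61981804) went up, from 3.15 and 2.01 rppm in A, 3.67, 3.78 and 2.27 rppm in B and 6.48, 3.50 and 3.77 rppm in C to 8.47, 8.58 and 7.73 rppm in D. All D libraries were above all others, with a log2 change from A of 1.39 ± 0.24 SE (adjusted p = 0.00156), and from C of 0.77 ± 0.22 SE that missed the threshold (adjusted p = 0.0568; 0.00753 with the mouse as a block). The other 3 Myc peaks were level: 29.2 and 30.9 rppm in A and D at 1.9 kb upstream, 5.8 and 5.3 rppm at 0.9 kb upstream, and 47.4 and 49.4 rppm in the gene 2 kb from its start. None of the 3 was called.

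Of 31 peaks of 7 mTOR genes 4 were called higher and 1 lower in D against A, beside 8.7% and 3.74% of all peaks. The calls were at Rptor, Rheb and Ddit4. Rptor (Raptor), the scaffold that defines mTOR complex 1, rose in intron 3, 74.3 kb from its start site (chr11:119676728-119677664). The values there were 5.33 and 4.43 rppm in A, 5.23, 5.38 and 4.63 rppm in B, 4.32, 5.25 and 5.48 rppm in C, and 13.5, 10.0 and 11.0 rppm in D. A, B and C shared 1 narrow range and D lay about 1 log2 unit higher, by 1.08 ± 0.17 SE from A (adjusted p = 0.000702) and 1.05 ± 0.15 SE from C (adjusted p = 0.00088). The C to D step exceeded the A to B step by 1.00 on the log2 scale, which missed the threshold (adjusted p = 0.0797).

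In intron 1 of Rptor, 41.6 kb from the start site, the values were 3.70 and 4.73 rppm in A, 5.79, 4.01 and 6.11 rppm in B, 7.85, 5.35 and 7.63 rppm in C, and 8.86, 6.98 and 9.90 rppm in D. Neighbouring populations overlapped and A and D did not (log2 change 0.87 ± 0.22 SE, adjusted p = 0.0151). That call was lost without the A library of mouse 1 (adjusted p = 0.177) or mouse 3 (0.05, just above the threshold) and without the D library of mouse 3 (0.0564), in a range of 0.000158 to 0.274. Rictor, the scaffold of mTOR complex 2, had 26.9 rppm in A and 41.6 rppm in D at an intronic peak at 18.2 kb that stayed outside the threshold (log2 change 0.58, adjusted p = 0.056). It passed the threshold in 7 of 24 other fits, among them DESeq2, quantile normalization and the mouse as a block (adjusted p = 0.00388).

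Rheb, the small GTPase that switches mTOR complex 1 on, rose in intron 1 at 18.2 kb (chr5:24823900-24824367), from 1.85 and 1.81 rppm in A, 2.00, 1.83 and 1.92 rppm in B and 2.16, 2.98 and 2.35 rppm in C to 3.46, 4.95 and 3.85 rppm in D. C lay above the overlapping A and B, and D above C (log2 change 0.84 ± 0.18 SE, adjusted p = 0.00573). Without the A library of mouse 1 or mouse 3 its adjusted p was 0.0523 and 0.0604, in a range of 0.00241 to 0.687. A Rheb peak 1.7 kb upstream, 191 bases wide, was called in D against C (log2 change 0.65 ± 0.17 SE, adjusted p = 0.0388), with 4.46 and 4.13 rppm in A, 3.23, 5.26 and 4.51 rppm in B, 2.94, 3.70 and 3.46 rppm in C, and 6.55, 5.96 and 5.10 rppm in D. The D libraries were above those of C and of A, and 1 overlapped B. That second call was the least stable of those in this step. It was lost in 15 of 23 other fits, among them those without any 1 library of A, C or D or without the B library of mouse 3 (adjusted p = 0.0506 to 0.13), in a range of 0.0155 to 0.344.

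Tsc1 and Tsc2, the complex that holds Rheb inactive, and Mtor have 1 peak each and no call. Ddit4 (Redd1), a stress-induced inhibitor that acts through the same complex, has 13 peaks with a call in each direction. The peak 13.0 kb upstream (chr10:59964361-59965256) had 5.33 and 6.24 rppm in A, 7.13, 8.36 and 9.54 rppm in B, 6.48, 7.30 and 10.1 rppm in C, and 15.0, 14.3 and 17.5 rppm in D. All B and C libraries lay between A and D, and B and C overlapped (log2 change from A to D 1.29 ± 0.19 SE, adjusted p = 0.000351; from C to D 0.91 ± 0.17 SE, adjusted p = 0.00481). The C to D call was lost after thinning to equal reads (adjusted p = 0.0637) and without mouse 2 (0.0977) or mouse 3 (log2 change 0.99).

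In exon 3 of Ddit4, 980 bases from the start site, the values fell from 19.5 and 19.4 rppm in A to 9.63, 13.4 and 16.1 rppm in D, with 18.0, 17.9 and 17.7 rppm in B and 13.9, 15.4 and 17.0 rppm in C (log2 change -0.57 ± 0.17 SE, adjusted p = 0.0437). The D library of mouse 3 overlapped C. This was the least stable call of D against A and was lost in 16 of 24 other fits, including those without 1 library each, apart from those without the C library of mouse 1 and the D library of mouse 3 (adjusted p = 0.0544 to 0.21 in the fits without 1 library that lost it, in a range of 0.00858 to 0.246 over all alternatives). The promoter peak of Ddit4 at 465 bases before the start had 64.3 ± 3.15 rppm in A (SD, n = 2) and 62.7 ± 9.05 rppm in D (SD, n = 3).

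**Figure D4:**
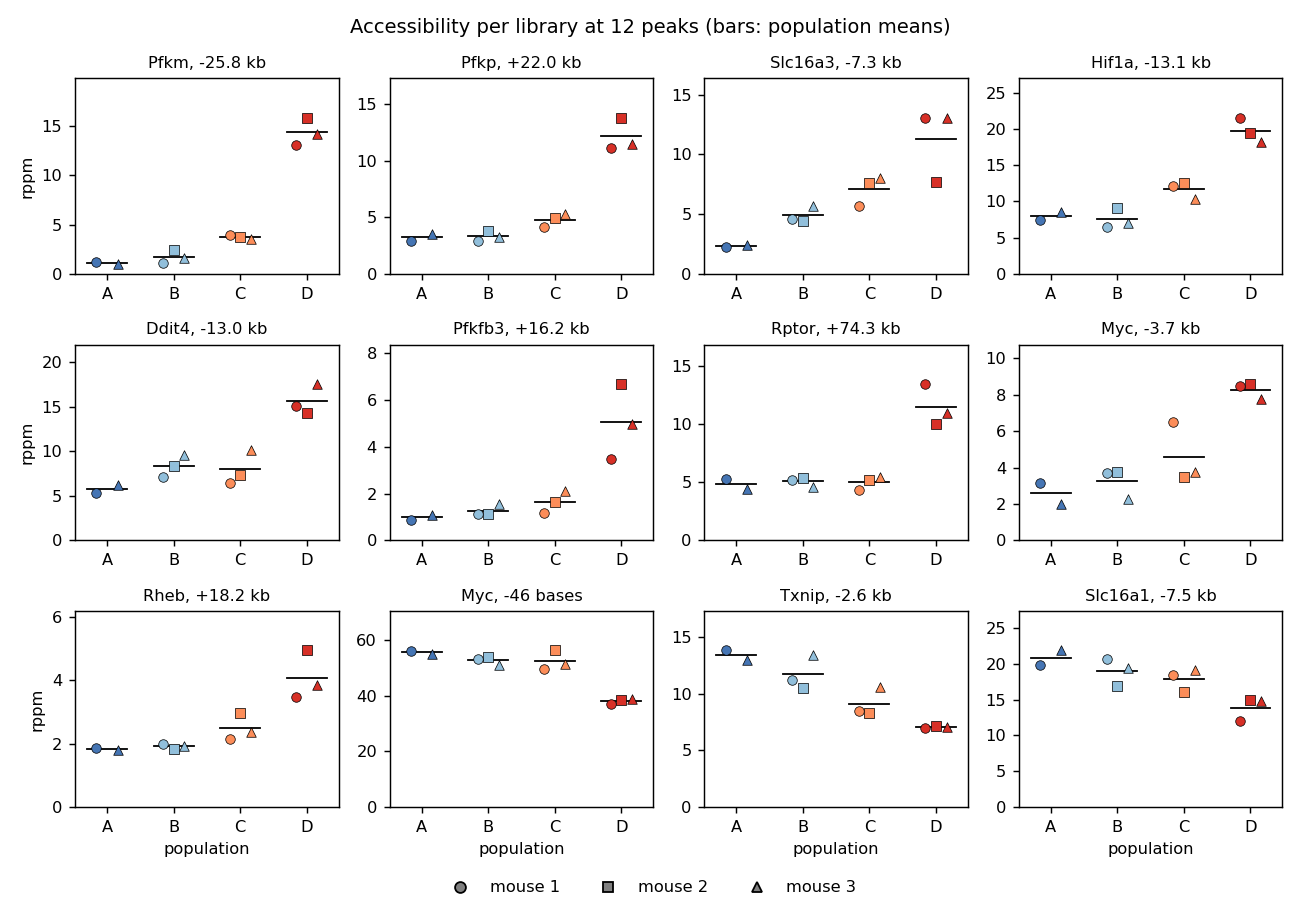
Rppm of each library (points, shaped by mouse) and population means (bars) at 12 peaks, for each gene and direction the called peak with the smallest p in D against A, apart from the Ddit4 peak in exon 3, which is not drawn. In the 9 upper panels, from Pfkm to Rheb, the 3 D libraries lie above both A libraries, and in the last 3, Myc at its promoter, Txnip and Slc16a1, below them.

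Amino acid transport genes had no call, beside 8.7% of all peaks called higher and 3.74% lower in D against A. Slc7a5 and Slc3a2 are the light and heavy chain of the large neutral amino acid transporter that activated T cells need for growth, and Slc1a5 carries glutamine. Their 11 peaks included promoters at 73.6 ± 0.920 rppm in A (SD, n = 2) and 67.4 ± 3.33 rppm in D (SD, n = 3) for Slc7a5, 67.6 ± 3.77 and 58.6 ± 2.94 rppm for Slc3a2, and 64.4 ± 0.783 and 65.3 ± 4.62 rppm for Slc1a5. The largest estimate was at an intronic Slc7a5 peak 9 kb from the start, 4.2 rppm in A and 7.0 rppm in D, which missed the threshold (log2 change 0.63, adjusted p = 0.082).

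Txnip, which removes glucose transporters from the cell surface and restrains glucose uptake, fell at 1 of its 6 peaks. At 2.6 kb upstream (chr3:96555163-96555474), at the annotated transcript end of the neighbouring gene Gm15441, the values were 13.8 and 13.0 rppm in A, 11.2, 10.5 and 13.4 rppm in B, 8.44, 8.33 and 10.6 rppm in C, and 6.93, 7.13 and 7.08 rppm in D. The D libraries were nearly equal to each other and below all others, and C lay below A (log2 change from A to D -0.84 ± 0.15 SE, adjusted p = 0.00195). The promoter of Txnip had 71.8 ± 2.51 rppm in A (SD, n = 2) and 66.9 ± 8.39 rppm in D (SD, n = 3; adjusted p = 0.647). With the mouse as a block, peaks 6.5 kb upstream (block log2 change -0.62, adjusted p = 0.0167; 0.245 without) and 4.2 kb downstream (-0.64, adjusted p = 0.0186; 0.124 without) were called lower as well, the latter in 3 of 24 other fits in all.

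Further genes of the same pathways were counted in the same fit, against the same background of 8.7% higher and 3.74% lower. Of 159 peaks of other mTOR genes 16 were called higher and 2 lower. Prr5l, a subunit of mTOR complex 2, rose 0.5 kb from its start site from 0.570 ± 0.191 rppm in A to 13.6 ± 1.78 rppm in D (log2 change 3.21 ± 0.19 SE, adjusted p = 4.81e-07), more than any member peak. Tbc1d7, the third subunit of the tuberous sclerosis complex, rose 5.9 kb upstream from 24.7 ± 2.09 to 50.5 ± 5.18 rppm (adjusted p = 0.000102). Sesn3, a sestrin that dampens mTOR complex 1, rose 135.5 kb upstream from 2.61 to 8.87 rppm (adjusted p = 0.000219), and Lamtor3, part of its lysosomal anchor, fell 7.8 kb upstream from 6.57 to 3.49 rppm (adjusted p = 0.00952).

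Of 67 peaks of other glycolysis genes 2 were higher and 0 lower: Gpd2, the mitochondrial glycerol phosphate dehydrogenase (1.73 rppm in A and 7.05 rppm in D, log2 change 1.55, adjusted p = 0.000115), and Pgls of the pentose phosphate pathway (1.45 and 4.15 rppm, log2 change 1.09, adjusted p = 0.00144). Other hypoxia genes had 2 of 73 peaks higher and 6 lower. Bhlhe40, a repressor also induced by receptor signalling, rose at its promoter from 15.6 ± 0.190 to 26.9 ± 1.28 rppm (adjusted p = 0.000942), and Siah1a, a ubiquitin ligase, rose 43.9 kb upstream (log2 change 0.86, adjusted p = 0.00421). P4ha2, a collagen prolyl hydroxylase (16.5 and 8.35 rppm, log2 change -0.92, adjusted p = 0.00124), and Epas1 (Hif2a; 32.2 and 20.0 rppm, log2 change -0.67, adjusted p = 0.0143) fell.

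In the Myc network and thioredoxin group 4 of 81 peaks were higher and 2 lower, led by Mlxipl (8.29 and 21.0 rppm, log2 change 1.23, adjusted p = 0.000283), Max, the partner of Myc (4.61 and 10.9 rppm at 123.2 kb, adjusted p = 0.00176), and Mycn (2.57 and 5.45 rppm, adjusted p = 0.0227). The promoter of Txnrd1, thioredoxin reductase, fell from 32.6 ± 1.40 to 24.6 ± 1.68 rppm (adjusted p = 0.0296). Among other amino acid transporters 4 of 59 peaks were higher and 0 lower, at Slc7a1 (1.45 and 5.01 rppm, log2 change 1.27, adjusted p = 0.000927), Slc7a7 (2.62 and 11.8 rppm, log2 change 1.85, adjusted p = 0.0024) and Slc43a2 (4.33 and 6.88 rppm, log2 change 0.56, adjusted p = 0.0421). These lists were described by counts alone, and no list was compared with the members by a test.

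Markers of cell types that the gates could let through were read in the same libraries. The counts that follow stand beside 8.7% of all peaks called higher and 3.74% lower in D against A. All 10 T cell marker genes had peaks, and of 100 peaks 6 were called higher and 4 lower in D against A. The B cell markers Ms4a1, Pax5, Cd22 and Blk had no peak, and 0 of the 6 peaks of B cell markers that have one were called (summed 45.1 to 51.4 rppm in A and 35.8 to 53.1 rppm in D). Of myeloid and dendritic markers Csf1r, Lyz2 and Siglech had no peak, and 1 of 19 peaks was higher and 3 lower (140.7 to 144.9 rppm in A and 99.0 to 126.8 rppm in D). The lower ones were at Itgax (log2 change -0.98), Itgam (-0.55) and Flt3 (-0.90), and every summed level in D lay below those in A. The 1 higher peak was also at 1 of these 3 genes, which therefore had calls in both directions. Of CD8 and NK markers, Ncr1 and Nkg7 had none, and 3 of 26 were higher and 2 lower (summed 555.4 to 570.6 rppm in A and 508.1 to 592.6 rppm in D).

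Of 38 peaks of 5 regulatory T cell markers 14 were called higher and 3 lower in D against A, beside 8.7% and 3.74% of all peaks. The higher ones belong to 3 genes (Ctla4, Ikzf2 and Il2ra) and the 3 lower ones all to Il2ra, the alpha chain of the Il2 receptor. A Ctla4 peak at 4.5 kb rose from 2.70 rppm in A to 23.0 rppm in D (log2 change 2.71, adjusted p = 4.81e-07 by limma). An Ikzf2 peak at 141.5 kb rose from 0.105 to 11.7 rppm (log2 change 3.48, adjusted p = 1.65e-06). An Il2ra peak 7 kb upstream fell from 37.1 to 17.8 rppm (log2 change -1.02, adjusted p = 9.89e-05). The summed level of the 38 peaks ran from 438.2 to 459.6 rppm in A and from 554.9 to 586.0 rppm in D. Of 32 peaks of effector and memory markers 10 were higher and 1 lower, with sums of 341.3 to 352.6 rppm in A and 390.8 to 405.4 rppm in D, and with no peak at Cxcr3. Peaks of Cd44 (log2 change 2.72), Ifng (2.60), S100a6 (2.03) and Ccl5 (1.89) were among the higher ones. Of 19 peaks of proliferation markers 1 was higher and 0 lower, with sums of 566.6 to 579.1 rppm in A and 526.7 to 567.3 rppm in D. The part of cells of these kinds in the changes at the 20 called member peaks was not tested.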

How the data were processed

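The data are 11 ATAC-seq libraries. The authors deposited 1 table of 45508 peaks with values in RPM, called rppm per the file headers. The submitters' processing notes name Bowtie, MACS2 and mm10. Read filters, peak merging and the scaling total are not given in the sources used here. Each peak carries the gene the authors assigned to it, which need not be the gene it acts on. Every listed peak reached 1 rppm in at least 3 libraries, and all were tested. Coordinates are as deposited.

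In each column every value (100%) was a whole number of steps, to within 6e-04 rppm, which gave whole reads and the totals. A peak at 10 rppm rested on 26 to 369 reads. Reads carry no molecular identifiers.

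Values on the scale log2(rppm + 1) were tested with limma 3.58.1 (R 4.3.3), two-sided, with 1 mean per population, all 11 libraries, a variance trend, no mouse term, and Benjamini-Hochberg adjustment over 45508 peaks in each comparison. Called means adjusted p under 0.05, and all adjusted p-values are from this fit unless another is named. A log2 change on rppm + 1 understates ratios at low peaks. All comparisons share libraries: D against A and D against C share D.

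Replicates with the same number come from the same mouse per the labels. Their deviations from the population means correlated at 0.183 to 0.556 in 15 pairs (median 0.357), against -0.433 to 0.203 in 30 pairs of different mice. Alternatives were pseudocounts of 0.25 and 5, median-of-ratios and quantile scaling, dropping peaks whose mean was below 5 rppm, the mouse as a block, the compared populations alone, edgeR 4.0.16 and DESeq2 1.42.0 on the recovered reads, libraries thinned to 2597176 reads, and leaving out each library and each mouse.

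Every member is accounted for, and peaks called in any comparison are given by library, up to 3 per gene by rule; the other 2 Hif1a peaks were added after their values were seen. Of other pathway lists up to 4 peaks with the smallest p, 1 per gene, are named. The members and lists were chosen with earlier results of these data known. A single gene of the B cell marker list is not reported here.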

Additional observations from a re-analysis of the deposited data

Results flagged for a closer look

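At 2 peaks the step from C to D, between reporter intermediate and high among Ly6C- cells, was larger than the step from A to B, between reporter low and intermediate among Ly6C+ cells, by a test of the difference itself. At the Pfkp peak 22.0 kb into the gene the steps differed by 1.16 on the log2 scale (SE 0.23, adjusted p = 0.0414 by limma). At the Pfkm peak 25.8 kb upstream of the gene, in Senp1, they differed by 1.36 (SE 0.26, adjusted p = 0.0344). Over 23 alternatives the estimates ran from 0.79 to 1.31 and from 1.02 to 1.63, always in the same direction, and the adjusted p from 0.007 to 1 and from 0.00186 to 1. Leaving out a single library ended the Pfkp call in every case but the D library of mouse 1 (adjusted p = 0.0652 to 0.261 in the others). It ended the Pfkm call in every case but the B library of mouse 2 and the D library of mouse 1 (adjusted p = 0.055 to 0.219).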

How the results depend on the processing

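Of the 20 calls in D against A 6 held in every alternative that tested them, as did 2 of the 12 in D against C, and no called change reversed direction. In D against A 13 members were called when peaks averaging below 5 rppm were dropped, 31 with the mouse as a replicate block and 13 after thinning to equal reads, in place of 20; the share of all tested peaks called moved too, from 12.4% to 8.78%, 21.2% and 6.15%. Leaving out a library or a mouse gave 6 to 24; the lowest was without mouse 3, and without the A library of mouse 1 or of mouse 3 it was 13 and 12. In D against C there were 19 with the replicate block and 5 after thinning (11.4% and 1.97% of all peaks, in place of 6.0%), and 3 to 12 with a library or mouse left out; without mouse 2 there were 5 and without mouse 3 there were 3. In C against B DESeq2 called 1, beside 75 higher and 11 lower of all peaks. The larger C to D step was called at 0 members with a pseudocount of 0.25, at 5 with 5, at 0 above 5 rppm, at 6 after quantile normalization, at 6 with the replicate block, at 0 with edgeR, DESeq2 or thinning, and at 0 to 2 with a library or mouse left out. The calls over all peaks moved too, from 277 higher and 10 lower. They were 77 and 0 with a pseudocount of 0.25, 523 and 21 with 5, and 0 and 0 above 5 rppm. Quantile normalization gave 484 and 23, and the replicate block 614 and 371. There were 22 and 0 with edgeR, 80 and 6 with DESeq2, and 4 and 0 after thinning. The cause of these differences was not tested. The filter leaves fewer peaks to test, and leaving out a library or mouse leaves fewer samples. With the block 18 further calls were added in D against A and D against C, and no call of these 2 comparisons was lost. The share of promoter peaks was 20.8% within 500 bases and 34.4% within 2 kb, against 23.9% and 31.3% of all peaks. Motifs in whole peaks and sequences of distal peaks were not analysed here, since no genome sequence was at hand. With 1 library of A left, that library is assumed to vary like the other groups. Depth limits the low peaks most: D of mouse 1 held a median of 28 reads at a member peak.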
